A study of Mus musculus with 18 samples.

Results

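The genes that encode the proteins of the cytosolic ribosome were followed through the sorted lymphocytes and macrophages of mouse livers with colon cancer metastases. Members were the protein-coding genes whose symbol is Rpl or Rps followed by a digit, together with Rplp0, Rplp1, Rplp2 and Rpsa, and without the Rps6k kinases, Rps19bp1 and Rpl7l1. This gave 91 of 54309 genes in the lymphocyte count table and 85 of 13759 genes in the macrophage count table, and all 85 were among the 91. In both tables, 43 of them encode large subunit proteins, 31 small subunit proteins and 3 the acidic proteins of the ribosomal stalk. The others, 14 in the lymphocyte table and 8 in the macrophage table, are paralogs and retrocopies, that is, intronless copies of a ribosomal protein mRNA in the genome. After the filter on low counts, 85 members could be tested in the lymphocytes, and the same number in the macrophages.

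Female mice 8 to 10 weeks old received MC38 cells, a colon adenocarcinoma line of mouse origin, in the spleen, and livers were analyzed 20 days later. Lymphocytes that lacked lineage markers and carried CD45 and NKp46 were sorted from pools of 6 to 8 samples of metastasis-free liver (MFL) or liver metastasis (LM). From MFL came NK cells, with CD49b and without CD49a, and ILC1, with CD49a and without CD49b. From LM came CD49a- NK cells, with CD49b alone, and CD49a+ NK cells, which carried both. Each of these 4 populations had 3 libraries. The 3 LM CD49a+ NK libraries carry ILC1 in their titles, and they were placed by their labelled surface phenotype. Metastasis-associated macrophages (MAM) of MC38 metastases, CD45+CD11b+ cells, were sorted as F4/80high and F4/80low, with 3 libraries each. LM was digested with enzymes and MFL parenchyma was pressed through a filter, so the site and the dissociation cannot be told apart.

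Ribosomal proteins assemble with ribosomal RNA into the large and small subunits, and dividing or activated cells make many of both. In mammals, their mRNAs start with a run of pyrimidines, the TOP element, through which growth signals (mTOR and the RNA-binding protein Larp1) set how much of each mRNA is translated. Many have retrocopies, and reads from a copy and its parent gene are hard to separate. NK cells are circulating cytotoxic lymphocytes, and ILC1 are their liver-resident relatives.

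The start of a ribosomal protein mRNA is shown for 6 members that the comparisons turn on, as 30 bases of the RefSeq promoter table (GRCm38.p6), 15 on each side of the annotated start. Capitals mark a run of 8 or more pyrimidines.
Rpl18, chr7:45718056-45718085, plus strand: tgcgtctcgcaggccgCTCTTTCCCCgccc
Rps9, chr7:3704026-3704055, plus strand: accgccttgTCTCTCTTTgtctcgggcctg
Rps27, chr3:90213634-90213663, minus strand: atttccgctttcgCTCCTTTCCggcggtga
Rpl13a, chr7:45128731-45128760, minus strand: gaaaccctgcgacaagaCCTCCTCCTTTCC
Rplp0, chr5:115559452-115559481, plus strand: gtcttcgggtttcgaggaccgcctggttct
Rps2, chr17:24720048-24720077, plus strand: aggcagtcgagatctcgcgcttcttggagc
Rpl18, Rps9, Rps27 and Rpl13a held such a run, and Rplp0 and Rps2 did not within this window of the annotated start. Of the 65 members with an entry in the table, 25 (38.5%) held a run of 8 pyrimidines on the coding strand between 10 bases before and 16 bases after a start, against 11.4% of all 27025 genes there. The letters CCGGAAG, on either strand between 250 bases before and 50 bases after a start, stood in 26 of the 65 (40.0%) and in 9.93% of all genes. AAGATGGC was found in 7.69% of the members against 3.19% of all genes, and TATAAA in 10.8% against 15.7%, both searched as CCGGAAG was. The searches were separate and matches may overlap.

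Near-identical sequences were compared on the coding sequence (GENCODE vM39, GRCm39), since they decide what a count of such a gene can mean. Rps27, a small subunit protein gene on chr3:90120035-90120922 (minus strand, 4 coding exons), and its retrocopy Rps27rt on chr9:114811524-114811775 (minus strand, 1 coding exon) had the same 252 bases. Rps27l, a paralog on chr9:66853457-66856636 (plus strand, 4 coding exons), differed from them at 60 of 252 positions, shown in capitals.
Rps27 and Rps27rt: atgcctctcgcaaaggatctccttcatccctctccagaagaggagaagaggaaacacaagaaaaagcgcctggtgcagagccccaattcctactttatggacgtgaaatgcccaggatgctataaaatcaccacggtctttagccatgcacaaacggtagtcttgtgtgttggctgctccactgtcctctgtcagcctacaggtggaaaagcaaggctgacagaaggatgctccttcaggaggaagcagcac
Rps27l: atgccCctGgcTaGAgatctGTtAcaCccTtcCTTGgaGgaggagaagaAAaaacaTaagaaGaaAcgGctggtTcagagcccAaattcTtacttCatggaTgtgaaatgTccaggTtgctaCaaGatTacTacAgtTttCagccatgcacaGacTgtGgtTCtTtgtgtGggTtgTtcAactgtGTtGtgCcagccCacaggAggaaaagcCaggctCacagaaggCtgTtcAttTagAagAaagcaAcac
Rpl10 and Rpl10-ps3 were also identical, over 642 bases. Rpl35 and Rpl35rt differed at 1 of 369 positions, Rpl9 and Rpl9-ps6 at 1 of 576, and Rps18 and Rps18-ps6 at 4 of 456. Values of these genes are therefore uncertain as to which copy they come from. The other paralogs compared were less alike, with 87.7% identity between Rpl36a and Rpl36al, 79.7% between Rps4x and Rps4l and 66.9% between Rpl22 and Rpl22l1. Rpl27rt and Rps23rg1 were not compared with their parent genes.

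Total counts ran from 8795721 to 14386834 per lymphocyte library and from 21278959 to 32267015 per MAM library. Genes with at least 10 counts numbered 9608 to 12601 in the LM lymphocyte libraries and 11651 to 13218 in the MFL libraries. The 12 lymphocyte libraries were made from total RNA and the 6 MAM libraries from poly(A) RNA, so levels are compared only within a table. Markers went with the labels. Itga1 (CD49a) lay at 646 to 680 CPM (counts scaled to library size with TMM factors) in MFL ILC1, at 105 to 156 in LM CD49a+ NK cells and at 5.83 to 20.1 in both CD49a- populations. Adgre1 (F4/80) lay at 806 to 1167 CPM in F4/80high and 124 to 160 CPM in F4/80low MAM. The LM CD49a+ NK libraries stood between MFL ILC1 and NK cells in the summed 8 ILC1 markers, with 310 to 355 CPM against 2048 to 2064 in MFL ILC1 and 31.5 to 77.5 in CD49a- NK cells.

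Ribosomal protein mRNAs made up a larger part of the LM CD49a+ NK libraries than of most other lymphocyte libraries. They took 5.49%, 4.37% and 3.11% of the counts of LM CD49a+ NK cells, 1.91%, 3.11% and 3.08% of LM CD49a- NK cells, 3.21%, 2.93% and 1.73% of MFL NK cells and 2.23%, 2.31% and 3.21% of MFL ILC1, in the order of replicates 1 to 3. The first and second LM CD49a+ NK libraries were above all 9 others, and the third lay among them. The means were 4.32% ± 1.19 (SD, n = 3) in LM CD49a+ NK cells, 2.70% ± 0.683 in LM CD49a- NK cells, 2.62% ± 0.787 in MFL NK cells and 2.58% ± 0.544 in MFL ILC1, each with n = 3. Replicate 3 of MFL NK cells and replicate 1 of LM CD49a- NK cells had the lowest shares. In these bulk samples, a change in the number of cells of a kind and a change in RNA per cell cannot be told apart. Between 3.68% and 15.2% of lymphocyte counts fell on genes of mitochondria, ribosomal RNA and other small RNA, and without these the 12 shares ran from 1.83% to 6.04%.

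**Figure D1:**
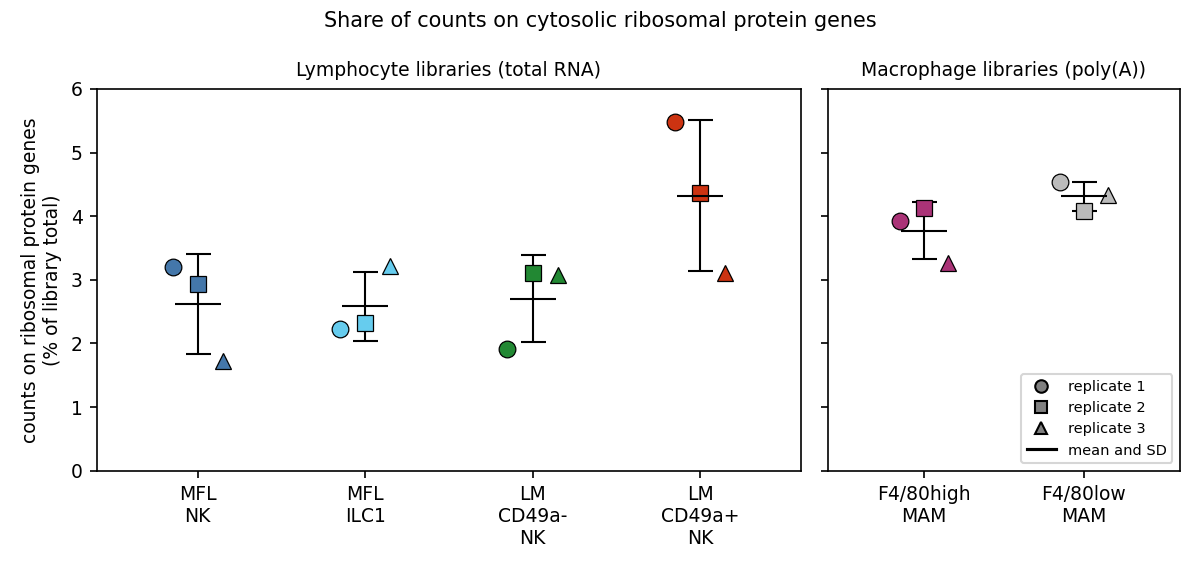
Counts on ribosomal protein genes as a percent of each library's total (vertical axis) for the 6 groups. Each point is 1 library, its shape gives the replicate number, and the bars give the mean and SD of 3 libraries. Of the 3 LM CD49a+ NK libraries, those at 5.49% and 4.37% stand above all other lymphocyte libraries, and the 2 MAM subsets overlap.

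Between the 2 populations of metastasis-free liver, no member passed the test. MFL ILC1 against MFL NK cells gave 0 of 85 members at an adjusted p under 0.1 (edgeR's quasi-likelihood test over 13594 genes), beside 3.06% of all genes tested. It gave 0 at an unadjusted p under 0.05, beside 8.37% of all genes, and 0 with DESeq2, beside 5.84% of the genes that tool tested. The median log2 fold change of the members was -0.05, beside 0.01 for all genes tested. Rplp0, the stalk protein that anchors Rplp1 and Rplp2, had 979, 913 and 575 CPM in MFL NK cells and 559, 546 and 747 CPM in MFL ILC1. The groups overlapped, with a log2 fold change of -0.41 ± 0.25 (SE). Rpl13a, a large subunit protein and the highest member per kilobase in the lymphocytes, had 2047, 1449 and 509 CPM in MFL NK cells and 1050, 1125 and 2102 CPM in MFL ILC1, which shows how far replicates of 1 population lay apart.

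No member passed the test either when LM CD49a- NK cells were set against MFL NK cells. edgeR called 0 of 85 members, beside 0.0736% of all genes. DESeq2 called 0 as well, beside 2.19% of the genes it tested, and 1 member had an unadjusted p under 0.05, beside 6.72% of all genes. It was the retrocopy Rpl9-ps6, named here after its values were seen. The median was 0.02 for the members and -0.09 for all genes tested. Rpsa, the small subunit protein once known as the laminin receptor, had 1755, 1534 and 1019 CPM in MFL NK cells and 1550, 2270 and 1962 CPM in LM CD49a- NK cells, a log2 fold change of 0.42 ± 0.25. Single libraries decided the sign of both of these medians. Without replicate 1 of MFL NK cells they were 0.19 for MFL ILC1 against MFL NK cells and 0.28 for LM CD49a- against MFL NK cells, and without replicate 3 of MFL NK cells they were -0.31 and -0.23. Leaving out replicate 3 of MFL ILC1 gave -0.26 in the former, and leaving out replicate 3 of LM CD49a- NK cells gave -0.23 in the latter.

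When MFL ILC1 was the reference for LM CD49a+ NK cells, 11 members passed the test. All 11 were higher in LM CD49a+ NK cells and 0 were lower, beside 2.29% of all genes called higher (edgeR, adjusted p under 0.1). They included Rplp0, Rpl29, Rps2, Rpl18, Rpl10a, Rpsa, Rps4x, Rpl4, Rpl23 and Rpl8. Over the 85 members tested, 82 had a positive fold change, with a median of 0.77 (interquartile range 0.58 to 0.94), against -0.07 (interquartile range -0.76 to 0.51) for all genes tested. An unadjusted p under 0.05 was reached by 42 members, all higher, beside 6.55% of all genes. In 34 members every LM CD49a+ NK library lay above every MFL ILC1 library, beside 9.33% of all genes, and in 1 member, Rps4l, every one lay below, beside 13.9%. DESeq2 called 17 members higher, beside 4.86% of the genes it tested.

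Rplp0 had 1966, 1339 and 1231 CPM in LM CD49a+ NK cells and 559, 546 and 747 CPM in MFL ILC1. The lowest of the former was above the highest of the latter, and the log2 fold change was 1.29 ± 0.26 (edgeR, adjusted p = 0.00958). Rps2, a small subunit protein near the mRNA entry channel, had 642, 498 and 563 CPM against 246, 229 and 271 CPM. Its log2 fold change was 1.19 ± 0.26 (edgeR, adjusted p = 0.0161), again without overlap. Rpl29, a small basic protein of the large subunit, had 1048, 902 and 852 CPM against 409, 424 and 505 CPM, with a log2 fold change of 1.07 ± 0.22 (edgeR, adjusted p = 0.0135). These 3 genes, and no other of the 11, were called in each of 12 fits that left out 1 library. Rpl10a, a large subunit protein of the L1 stalk, had the largest fold change of the 11, 1.33 ± 0.33 (edgeR, adjusted p = 0.0370). Its values were 289, 190 and 208 CPM in LM CD49a+ NK cells and 49.6, 79.5 and 144 CPM in MFL ILC1, so that replicate 3 of the latter lay well above its fellows but below all LM CD49a+ libraries. Rpl18, a large subunit protein, had 570, 444 and 305 CPM against 158, 183 and 213 CPM (1.25 ± 0.28, with an edgeR adjusted p = 0.0197). Rps4x, a small subunit protein encoded on the X chromosome, had 927, 578 and 476 CPM against 257, 286 and 370 CPM (1.12 ± 0.29, with an edgeR adjusted p = 0.0504).

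Of the other genes chosen for description, Rpsa passed the test, with 3151, 2666 and 2046 CPM in LM CD49a+ NK cells and 1308, 1218 and 1456 CPM in MFL ILC1 (0.98 ± 0.25, with an edgeR adjusted p = 0.0498). The remaining ones did not. Rplp1 had 1043, 836 and 674 CPM in LM CD49a+ NK cells and 393, 431 and 616 CPM in MFL ILC1, without overlap (edgeR, adjusted p = 0.184). Rplp2 had 1117, 888 and 562 CPM against 420, 522 and 648 CPM, and its groups overlapped (edgeR, adjusted p = 0.277). Rpl3, which lines the peptidyl transferase center, had 1521, 1088 and 993 CPM against 727, 614 and 718 CPM, with a log2 fold change of 0.81 ± 0.24 at an adjusted p of 0.102 (edgeR). Rps6, the small subunit protein that S6 kinases phosphorylate, had 691, 881 and 602 CPM against 335, 463 and 590 CPM, just without overlap (0.65 ± 0.33, with an edgeR adjusted p = 0.404). Rps18 and Rpl13a overlapped between the groups, with log2 fold changes of 0.89 ± 0.39 and 0.57 ± 0.42. Rps27 overlapped too, with 280, 193 and 124 CPM in LM CD49a+ NK cells and 139, 133 and 238 CPM in MFL ILC1 (0.23 ± 0.34).

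The number of called members changed when single libraries were left out. It was 3 without replicate 1 of MFL ILC1 or replicate 1 of LM CD49a+ NK cells, 4 without replicate 2 of MFL ILC1, 7 without replicate 3 of MFL ILC1 or replicate 2 of MFL NK cells, and 9 to 16 without any other library. Each of these fits also filtered the genes and estimated the spread anew. They called 166 to 422 of 14324 to 14536 genes higher, against 311 of 13594 with all libraries. The members' median fell to 0.50 without replicate 1 of LM CD49a+ NK cells and stayed between 0.66 and 0.95 without any other. Of 7 T cell markers, Cd3g, a chain of the T cell receptor complex, stood apart, at 224 to 668 CPM in MFL ILC1 and 1.69 to 35.7 CPM in LM CD49a+ NK cells. In MFL ILC1 it carried nearly all of the summed markers (238 to 680 against 5.18 to 35.7 CPM). Cd3d and Cd3e, of the same complex, overlapped, at up to 4.83 and 0.366 CPM in MFL ILC1 and up to 16.4 and 2.97 CPM in LM CD49a+ NK cells. Cd4, Cd5, Cd8a and Cd8b1 had no count in any LM CD49a+ library. In MFL ILC1, Cd4 lay at 1.99 to 5.09 CPM, Cd8a at 3.29 to 6.28, Cd5 at up to 0.512 and Cd8b1 at up to 1.78 CPM. The sum of 10 hepatocyte markers lay at 110 to 139 CPM in MFL ILC1 and at up to 34.3 CPM in LM CD49a+ NK cells, with 5 of 10 at 0 in the latter. Trf (47.1 to 72.1 against 10.4 to 34.1 CPM) and Alb (22.5 to 63.8 against 0 to 11.2 CPM) carried most of it. The part of these markers in the difference was not tested.

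Against the other 2 NK populations, fold changes of the same LM CD49a+ NK libraries were mostly positive, but no member passed the test. Within the metastases, against CD49a- NK cells, edgeR called 0 of 85 members, beside 0.14% of all genes. DESeq2 called 5, all higher, beside 3.37% of the genes it tested. An unadjusted p under 0.05 was reached by 30 members, all higher in LM CD49a+ NK cells, beside 5.92% of all genes. The fold change was positive in 83 of 85, with a median of 0.67 against 0.01 for all genes tested. In 20 members the 3 LM CD49a+ libraries lay above the 3 LM CD49a- libraries, beside 5.72% of all genes. Against MFL NK cells, edgeR called 0 of 85, beside 0.647% of all genes, and DESeq2 called 12, all higher, beside 1.98% of the genes it tested. Here 32 members had an unadjusted p under 0.05, all higher, beside 3.86% of all genes, and 82 of 85 fold changes were positive, with a median of 0.72. The groups did not overlap in 26 members, all higher in LM CD49a+ NK cells, beside 7.06% of all genes. These 3 comparisons share the LM CD49a+ NK libraries, so they are not independent. Without replicate 1 of LM CD49a+ NK cells, the medians were 0.36 against LM CD49a- NK cells and 0.40 against MFL NK cells. The sum of 8 NK cell markers lay at 3389 to 4281 CPM in LM CD49a+ NK cells and at 4539 to 8735 CPM in the other 2 NK populations, with none at 0. Of 6 B cell markers only Ighm was above 3 CPM in any of these libraries, at 117 to 121 CPM in LM CD49a+ NK cells against 15.9 to 83.2 CPM, and 4 of 6 were at 0 in LM CD49a+ NK cells. The part of these markers in the difference was not tested.

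Of single genes, Rplp0 and Rpl10a did not overlap between LM CD49a+ NK cells and the other NK populations. Rplp0 had 800, 932 and 1023 CPM in LM CD49a- NK cells, all below the 1231 CPM of the lowest LM CD49a+ library (0.72 ± 0.25, with an edgeR adjusted p = 0.366). Rpl10a had 90.0, 106 and 118 CPM in LM CD49a- NK cells and 140, 122 and 92.0 CPM in MFL NK cells, both below the 190 CPM of the lowest LM CD49a+ library. Rpsa overlapped between the LM populations, since replicate 2 of LM CD49a- NK cells, at 2270 CPM, lay above replicate 3 of LM CD49a+ NK cells, at 2046 CPM. Rpl3 differed from MFL NK cells by 0.89 ± 0.24 at an adjusted p of 0.168, and Rpl29 by 0.91 ± 0.22 at an adjusted p of 0.106 (both edgeR).

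The difference between the CD49a contrasts of the 2 sites was tested itself, as LM CD49a+ minus LM CD49a- NK cells less MFL ILC1 minus MFL NK cells. No member was called (0 of 85, beside 1.03% of all genes, edgeR), DESeq2 called 0, beside 3.82% of the genes it tested, and 15 members had an unadjusted p under 0.05, all with a more positive value in LM, beside 4.6% of all genes. The median was 0.70 for the members and 0.04 for all genes tested. Rplp0 had the value 1.13 ± 0.36 (edgeR, adjusted p = 0.297), Rpl10a 1.51 ± 0.46 (adjusted p = 0.250) and Rps4x 1.13 ± 0.40 (adjusted p = 0.406). ILC1 also differ from LM CD49a+ NK cells in CD49b, so CD49a alone is not what this term compares.

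**Figure D2:**
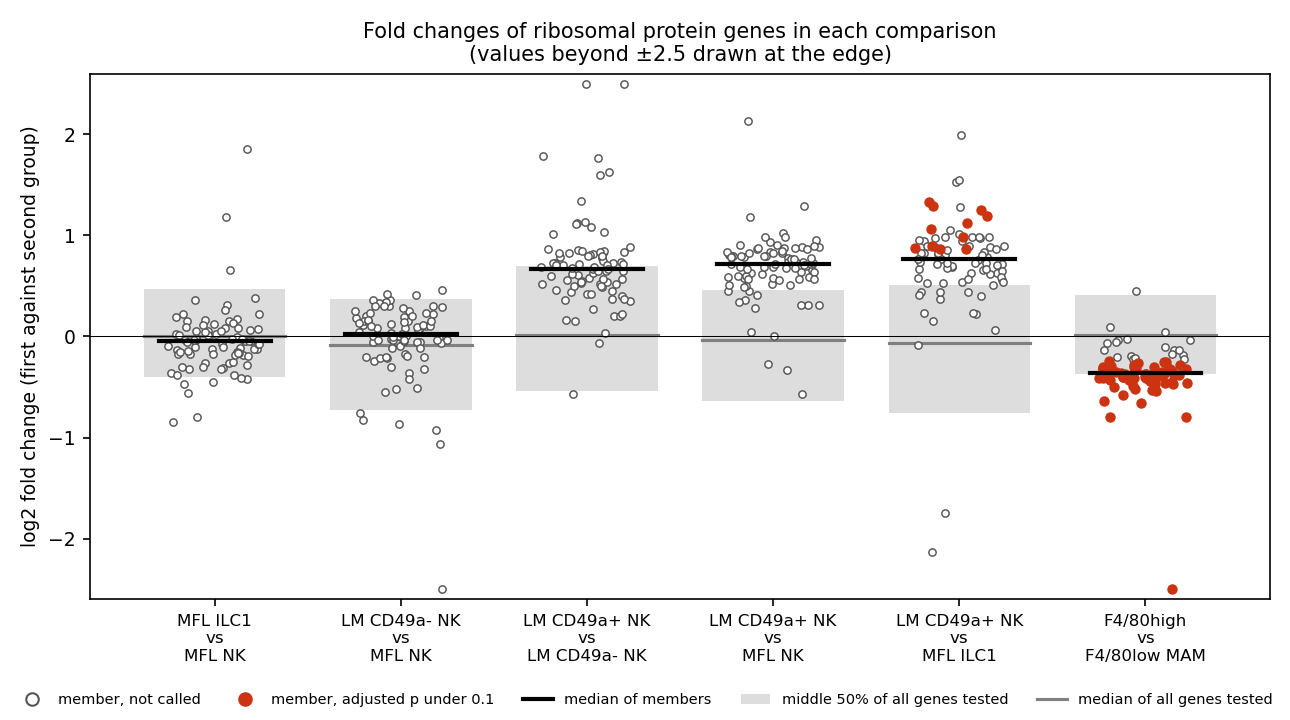
Log2 fold change of each member (vertical axis, points) in 6 comparisons (horizontal axis), with values beyond 2.5 in size drawn at the edge. Red points passed an adjusted p under 0.1, black lines are the members' medians, and gray boxes and lines give the interquartile range and median of all genes tested. The members lie around 0 in the first and second comparisons, between 0.67 and 0.77 in median wherever LM CD49a+ NK cells are compared, and at -0.36 in the MAM.

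In the macrophages, ribosomal protein genes were lower in F4/80high than in F4/80low MAM. The deposited table of these libraries had no gene with fewer than 37 counts over the 6 libraries, so shares of all genes here are shares of a table already without its lowest genes. edgeR called 66 of 85 members lower and 0 higher, beside 27.1% of all genes called lower and 54.9% called in either direction. The fold change was negative in 82 of 85 members. Its median was -0.36 (interquartile range -0.42 to -0.25), and that of all genes tested was 0.01. In 65 members all F4/80high libraries lay below all F4/80low libraries, beside 28.6% of all genes. DESeq2 called 68 lower and 0 higher, beside 26.8% of the genes it tested called lower. With near-identical copies summed, edgeR called 63 lower and 0 higher, with 7553 of 13756 genes called in either direction. Rpl35 was then no longer called (edgeR, adjusted p = 0.103). Without replicate 3 of F4/80high MAM, 57 were called lower and 2 higher, among them the retrocopy Rpl35rt, with 7234 of 13711 genes called in either direction.

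The size of this difference rested in part on the scaling between libraries. TMM factors were 1.03 to 1.08 in F4/80high and 0.930 to 0.977 in F4/80low MAM. As a plain share of counts, the members took 3.92%, 4.13% and 3.27% of F4/80high libraries and 4.54%, 4.08% and 4.33% of F4/80low libraries, and the groups overlapped (means 3.77% ± 0.447 and 4.32% ± 0.231, SD, n = 3). With library totals in place of TMM factors, 29 of the 66 members stayed called, none was called higher, beside 20.5% of all genes called lower. The median was then -0.21, while that of all genes moved to 0.16. The members lay below all genes by both scalings, but a change of scaling shifts every gene nearly alike. The gap between these medians therefore cannot show whether the scaling matters. Of the 66, 44 were called in each of 6 fits that left out 1 library.

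Apart from the nearly unexpressed Rpl3l, the most negative fold changes were those of Rps27rt, Rps27, Rps9, Rps4l and Rpl18. Rps9, a small subunit protein that binds ribosomal RNA early in assembly, had 852, 804 and 740 CPM in F4/80high and 1297, 1143 and 1333 CPM in F4/80low MAM. There was no overlap, and the log2 fold change was -0.66 ± 0.10 (edgeR, adjusted p = 0.00108). Rps27 and its copy Rps27rt, whose coding sequence is printed above, had the same fold change, -0.80 ± 0.18 and -0.80 ± 0.12 (edgeR, adjusted p = 0.00625 and 0.000748). Rps27rt carried most of the counts, with 170, 159 and 137 CPM in F4/80high and 299, 240 and 274 CPM in F4/80low MAM. With both summed, the log2 fold change of Rps27 was again -0.80 ± 0.12 (edgeR, adjusted p = 0.000734). Rpl18 was the large subunit gene with the most negative value, at 470, 491 and 405 CPM against 713, 609 and 714 CPM (-0.58 ± 0.11, with an edgeR adjusted p = 0.00296). Rpsa, the highest member per kilobase in the MAM, had 1380, 1472 and 1146 CPM against 2046, 1765 and 1979 CPM (-0.53 ± 0.12, with an edgeR adjusted p = 0.00681). Rps9, Rps27, Rps27rt, Rpl18 and Rpsa stayed called with library totals, and Rps4l did not.

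Rplp0 had 1557, 1679 and 1394 CPM in F4/80high and 2069, 1846 and 2016 CPM in F4/80low MAM (-0.36 ± 0.10, with an edgeR adjusted p = 0.0226). Rps6 had 570, 617 and 511 CPM against 840, 728 and 763 CPM (-0.46 ± 0.10, with an edgeR adjusted p = 0.00724). Rpl13a and Rps18 were lower by similar amounts, -0.32 ± 0.11 and -0.32 ± 0.12 (edgeR, adjusted p = 0.0412 and 0.0520). By subunit, 34 of 43 large subunit, 25 of 31 small subunit and 2 of 3 stalk genes were called lower, with medians of -0.33, -0.40 and -0.36. The ratio of counts on large subunit and stalk genes to counts on small subunit genes, which no scaling changes, was 1.318, 1.324 and 1.376 in F4/80high and 1.294, 1.307 and 1.284 in F4/80low MAM, and the groups did not overlap. Paralogs and retrocopies were left out of this ratio. Among them were Rps27rt and Rpl10-ps3, which held most of the counts of their pairs in the MAM.

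Of the 85 members, 19 did not pass the test between the subsets. Rps2 had 1313, 1508 and 1062 CPM in F4/80high and 1311, 1158 and 1289 CPM in F4/80low MAM, with full overlap and a log2 fold change of 0.05 ± 0.14. Rplp1 had 758, 730 and 598 CPM against 771, 634 and 737 CPM (-0.04 ± 0.12), while Rplp2, its partner in the stalk, was called lower (-0.41 ± 0.13, with an edgeR adjusted p = 0.0340). Rpl10a had 277, 311 and 260 CPM against 301, 277 and 286 CPM (-0.03 ± 0.09). Rpl3 had 944, 931 and 848 CPM against 1076, 939 and 969 CPM (-0.13 ± 0.10, with an edgeR adjusted p = 0.288). Whether members differ from each other in fold change was not tested.

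Markers of some other cells differed between the MAM subsets. The sums of B cell, T cell, neutrophil and erythroid markers overlapped, but some single genes did not. Csf3r carried most of the neutrophil sum and overlapped (66.8 to 84.1 CPM in F4/80low against 73.3 to 103 CPM in F4/80high MAM). S100a9 (1.91 to 32.8 against 0 to 0.225 CPM), Mmp8, Retnlg and Cxcr2 were higher in F4/80low MAM without overlap. So was the T cell marker Cd5, while the B cell marker Cd79b was lower there (4.76 to 7.65 against 15.4 to 22.1 CPM). Over 6 dendritic cell markers the sum was 230 to 347 CPM in F4/80low and 8.43 to 11.2 CPM in F4/80high MAM. Of these, Xcr1 overlapped, at 0.605 to 4.13 against 0.850 to 2.01 CPM. Over 6 monocyte markers it was 2064 to 2287 against 452 to 574 CPM, with Ccr2 as the most abundant (1358 to 1392 against 426 to 525 CPM). Of 8 tumor epithelium markers 3 were in the table. Cdh1 (189 to 264 against 8.06 to 11.5 CPM) carried most of their sum, Epcam lay at 7.70 to 17.2 against 0.162 to 0.360 CPM, and Lgals4 overlapped between the subsets. Of 10 hepatocyte markers 4 were in the table. Trf was higher in F4/80high MAM, at 353 to 726 against 208 to 242 CPM, while Alb (1.23 to 6.84 against 1.43 to 3.59 CPM), Apoa1 and Fgb were low and overlapped. Of 8 NK cell markers 6 were in the table, with a sum of 13.1 to 28.8 CPM in F4/80low and 1.17 to 3.15 CPM in F4/80high MAM. Klrb1c, Itga2 and S1pr5 did not overlap between the subsets, and Eomes, Prf1 and Gzma did. None of the NK cell, dendritic cell, monocyte, tumor epithelium or hepatocyte markers in the table was at 0 in all libraries of a subset. The part of the markers of other cells in the members' difference was not tested.

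**Figure D3:**
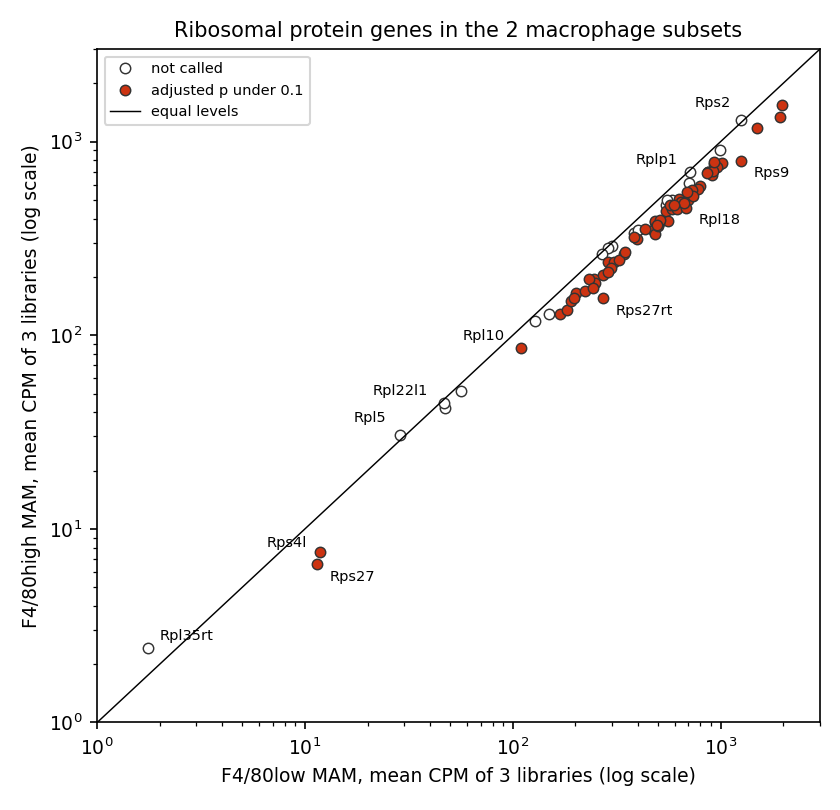
Mean CPM of each member in F4/80low (horizontal axis, log scale) and F4/80high MAM (vertical axis, log scale), 3 libraries each. Red points passed an adjusted p under 0.1 and the line marks equal levels. Most points lie just below the line, with Rps9, Rpl18 and Rps27rt farthest among the abundant genes and Rps2, Rplp1 and Rpl5 on or near it, and Rpl3l, at under 1 CPM, is outside the axes.

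Paralogs of 1 parent gene did not always share a call. Rpl22, a large subunit protein, was called lower in F4/80high MAM at 205, 209 and 173 CPM against 264, 229 and 248 CPM (-0.34 ± 0.10, with an edgeR adjusted p = 0.0244). Its paralog Rpl22l1 had 53.4, 42.9 and 37.7 CPM against 49.8, 40.2 and 49.4 CPM (-0.06 ± 0.14) and was not called. Rpl36al was called lower at 132, 140 and 114 CPM against 169, 154 and 185 CPM (-0.40 ± 0.11, with an edgeR adjusted p = 0.0165), and Rpl36a, at 128, 128 and 101 CPM against 134, 116 and 135 CPM, was not (-0.11 ± 0.12). Whether the 2 members of a pair differ from each other was not tested. Rps4l had 7.65, 9.71 and 5.55 CPM against 12.3, 14.6 and 8.65 CPM and was called lower (-0.64 ± 0.25, with an edgeR adjusted p = 0.0667) although its groups overlapped. Rpl3l, a muscle paralog of Rpl3, was called from 0, 0 and 1 counts in F4/80high and 14, 14 and 12 counts in F4/80low MAM, too few for a fold change. Rps27l did not differ between the subsets by the test (-0.13 ± 0.13).

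In the lymphocytes, none of the 8 paralogs and retrocopies that could be tested passed the test. Rpl22 had 651, 517 and 299 CPM in LM CD49a+ NK cells and 257, 253 and 346 CPM in LM CD49a- NK cells, and Rpl22l1 had 74.5, 20.4 and 42.4 CPM against 49.5, 13.3 and 56.5 CPM. Rpl36a and Rpl36al had near-equal counts, with 35.1% to 60.2% of a pair's counts on Rpl36al over the 12 libraries. Rps27l, low in the lymphocytes, had 11.2, 10.8 and 6.68 CPM in LM CD49a+ NK cells and 4.16, 3.44 and 4.17 CPM in MFL ILC1, without overlap but far from the test's threshold (edgeR, adjusted p = 0.845). Rps4l went the other way, at 4.74, 7.20 and 7.07 CPM against 43.2, 12.7 and 8.15 CPM (-1.75 ± 1.02, with an edgeR adjusted p = 0.502). Rpl3l and Rpl10l had 0 counts in all 12 libraries, which allows up to 3 counts in each. Rps27rt had 0 counts as well, but its coding sequence is identical to that of Rps27. Its 0 therefore sets no such limit. Rpl39l, Rpl27rt and Rps23rg1 were also below the filter.

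Counts were divided between a parent gene and its identical copy in opposite ways in the 2 tables. In the lymphocytes Rps27 had a mean of 2092 counts and Rps27rt 0. In the MAM Rps27 had 248 and Rps27rt 5824, so that 95.2% to 96.3% of the pair's counts stood under the copy. Rpl10, a protein that joins the large subunit late in its assembly, had 5513 counts and Rpl10-ps3 559 in the lymphocytes, and 2670 and 22191 in the MAM. Within the lymphocytes the division of this pair changed from library to library, from 0% to 46.8% on the copy. In LM CD49a+ NK cells Rpl10 had 829, 697 and 286 CPM and Rpl10-ps3 had 141, 0 and 252 CPM. Read alone, Rpl10 did not pass the test against MFL ILC1 (0.90 ± 0.31, with an edgeR adjusted p = 0.186), and with the copy added it did (1.04 ± 0.27, with an edgeR adjusted p = 0.0495).

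**Figure D4:**
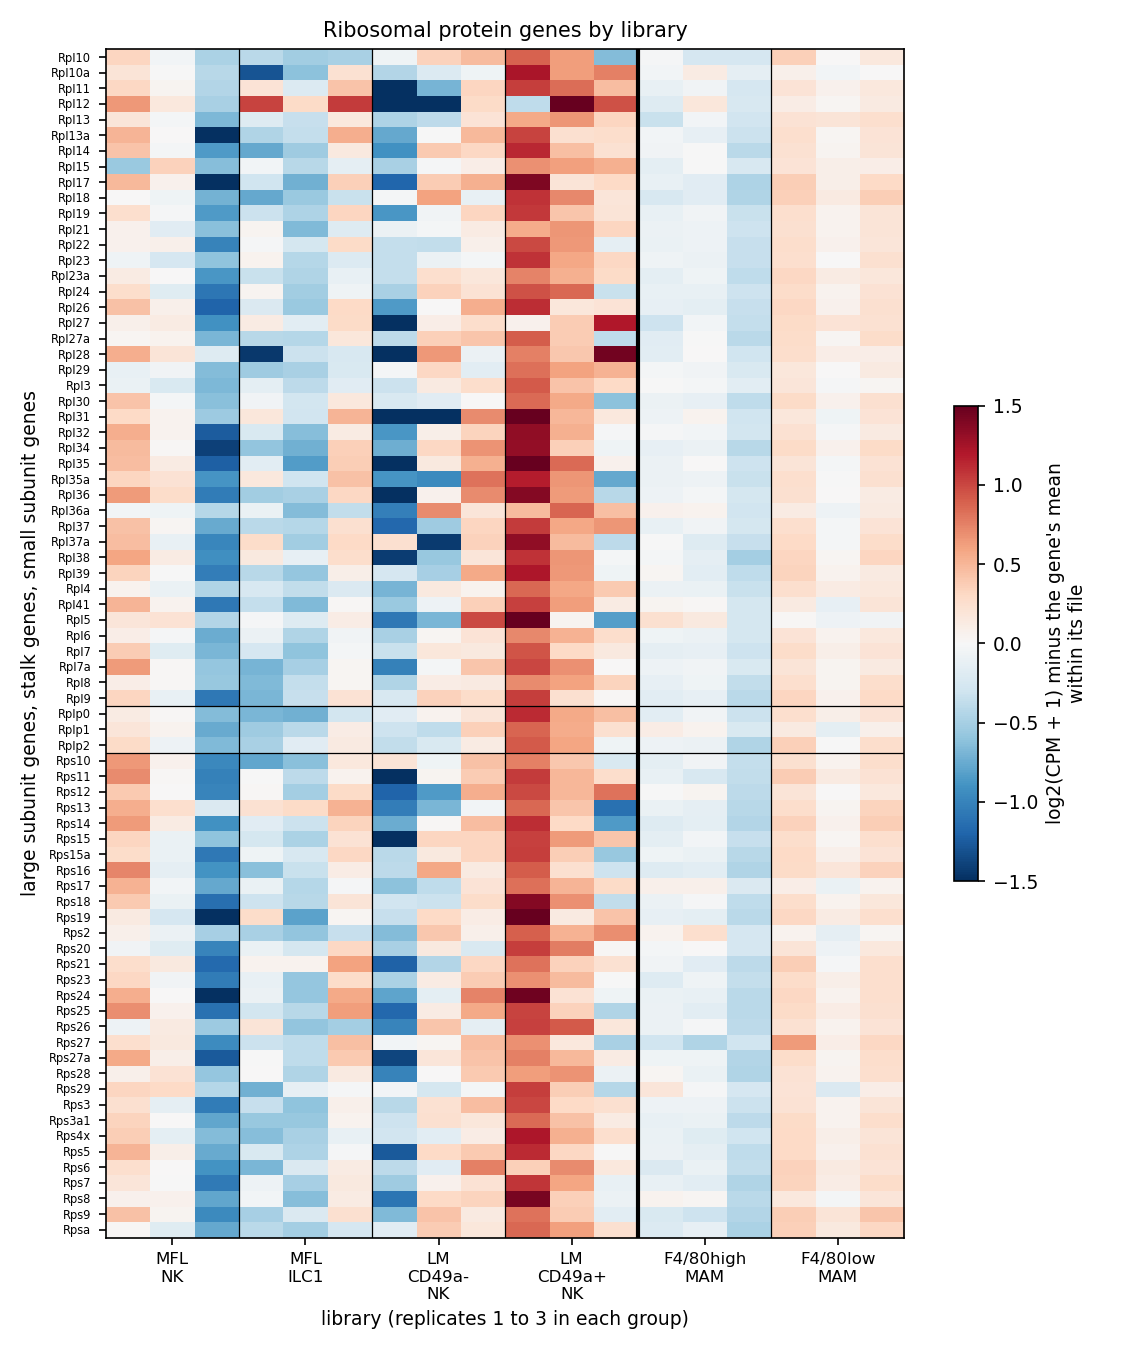
Level of large subunit, stalk and small subunit genes (rows) in the 18 libraries (columns, replicates 1 to 3 in each group), as log2(CPM + 1) minus the gene's mean over the libraries of its own table. Red is above and blue below that mean, and the thick line separates the tables. Replicate 1 of LM CD49a+ NK cells is red in nearly every row, replicate 3 of MFL NK cells is blue in nearly every row, and the MAM columns are paler than those of the lymphocytes.

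Per kilobase of transcript, the members spanned a wide range. In the lymphocytes the highest mean levels were those of Rpl13a (1506 CPM per kilobase), Rpsa (1477) and Rpl26 (1199), and the lowest tested were those of Rpl9-ps6 (11.8), Rps27l (9.45) and Rps4l (8.19). In the MAM Rpsa (1318), Rplp0 (1307) and Rplp1 (1288) were highest, and Rps4l (7.31), Rpl35rt (4.67) and Rpl3l (0.202) were lowest. Lengths are medians of annotated coding transcripts, and some annotated transcripts of ribosomal protein genes are long, such as the 6111 bases used for Rpl37 and 5204 for Rps15a, which lowers their value per kilobase. By this measure the stalk genes Rplp0, Rplp1 and Rplp2 ranked 10, 4 and 5 in the lymphocytes and 2, 3 and 18 in the MAM.

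Genes that work with the ribosomal proteins were read from lists. Fau encodes a fusion with a ubiquitin-like protein that releases a small subunit protein, and Rack1 is a scaffold on the small subunit. In F4/80high MAM Fau was lower (512 ± 19.7 against 777 ± 84.4 CPM, SD, n = 3, log2 fold change -0.60 ± 0.10, with an edgeR adjusted p = 0.00178) and so was Rack1 (-0.34 ± 0.10, with an edgeR adjusted p = 0.0196). In LM CD49a+ NK cells Rack1 was higher than in MFL ILC1 (706 ± 256 against 374 ± 32.6 CPM, log2 fold change 0.92 ± 0.27, with an edgeR adjusted p = 0.0939), and Fau was not called (0.53 ± 0.31).

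Translation factors and other genes with TOP mRNAs were called in the same direction as the members. Of 22 such genes, 13 (59.1%) were called lower and 0 higher in F4/80high MAM, beside 27.1% of all genes called lower, with a median of -0.24. Tpt1, a TOP mRNA of very high level, had 1433 ± 85.7 CPM against 2347 ± 273 CPM (-0.71 ± 0.11, with an edgeR adjusted p = 0.00124), and Eif4a2, an RNA helicase of initiation, differed by -0.61 ± 0.10 (edgeR, adjusted p = 0.00140). In LM CD49a+ NK cells against MFL ILC1, 6 of the 22 (27.3%) were called higher and 0 lower, beside 2.29% of all genes called higher, with a median of 0.59. Eef1g, a subunit of the elongation factor 1 complex, had 498 ± 124 CPM against 219 ± 9.35 CPM (1.18 ± 0.23, with an edgeR adjusted p = 0.00730), and the histone chaperone Nap1l1 differed by 1.20 ± 0.29 (edgeR, adjusted p = 0.0311). Eef1g was also the 1 gene of this list called against MFL NK cells (1.04 ± 0.23, with an edgeR adjusted p = 0.0570), beside 0.427% of all genes called higher.

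Genes that act in making ribosomes were called in both directions in the MAM, where 27.8% of all genes were called higher and 27.1% lower. Of 44 ribosome biogenesis genes, 9 were called higher and 3 lower in F4/80high MAM, which is 27.3% in either direction beside 54.9% of all genes, with a median of 0.12. Nop56, a core protein of the particles that methylate ribosomal RNA, was higher (118 ± 26.9 against 76.1 ± 6.29 CPM, log2 fold change 0.63 ± 0.16, with an edgeR adjusted p = 0.0111), as was the nucleolar GTPase Gnl3 (0.57 ± 0.14, with an edgeR adjusted p = 0.0108). Gtpbp4 (-0.41 ± 0.11) and Sdad1 (-0.36 ± 0.10), which act in large subunit assembly, were lower (edgeR, adjusted p = 0.0136 and 0.0169). Of 24 genes of RNA polymerases I and III, 4 were higher and 3 lower (29.2% in either direction), among the latter Polr1h, a subunit of polymerase I (-0.77 ± 0.11, with an edgeR adjusted p = 0.000748). Among 78 mitochondrial ribosomal protein genes, a list added after the members' values were seen, 13 were called higher and 5 lower (23.1%), with a median of 0.08. Of 10 snoRNA host genes, 0 were higher and 3 lower, beside 27.1% of all genes called lower, with Snhg15 at the lowest value (-1.20 ± 0.22, with an edgeR adjusted p = 0.00261). Of 18 growth regulators tested, 7 were called (38.9%), 4 of them higher, among them Rptor, a subunit of mTOR complex 1 (0.47 ± 0.10, with an edgeR adjusted p = 0.00587), and Eif4e, the cap-binding protein (0.44 ± 0.10, with an edgeR adjusted p = 0.00704). The 3 that were lower included Pdcd4, an inhibitor of initiation, with 10.04 ± 1.69 against 24.9 ± 5.12 CPM (-1.31 ± 0.18, with an edgeR adjusted p = 0.000547).

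In LM CD49a+ NK cells against MFL ILC1, 0 of 44 biogenesis genes, 0 of 10 snoRNA host genes and 0 of 78 mitochondrial ribosomal genes were called by edgeR, beside 2.29% of all genes called higher. An unadjusted p under 0.05 was reached by 7, 0 and 1 of them (the 7 higher, the 1 lower), beside 6.55% of all genes higher and 14.1% in either direction, with medians of 0.37, -0.15 and -0.02. Calls by DESeq2 were not counted for these lists. Groups did not overlap in 13 of the 44 biogenesis genes, of which 12 were higher in LM CD49a+ NK cells, beside 9.33% of all genes, and 1 was lower, beside 13.9%. Of the 24 polymerase genes 1 was called (median 0.09), and of the 19 growth regulators 1 (median 0.26), both higher. Taf1d, a subunit of the RNA polymerase I factor SL1, was higher (314 ± 45.5 against 130 ± 29.2 CPM, log2 fold change 1.27 ± 0.28, with an edgeR adjusted p = 0.0199). Myc, the transcription factor that drives ribosome production, was higher as well, with 218 ± 87.7 against 76.4 ± 6.03 CPM (1.51 ± 0.45, with an edgeR adjusted p = 0.0973).

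**Figure D5:**
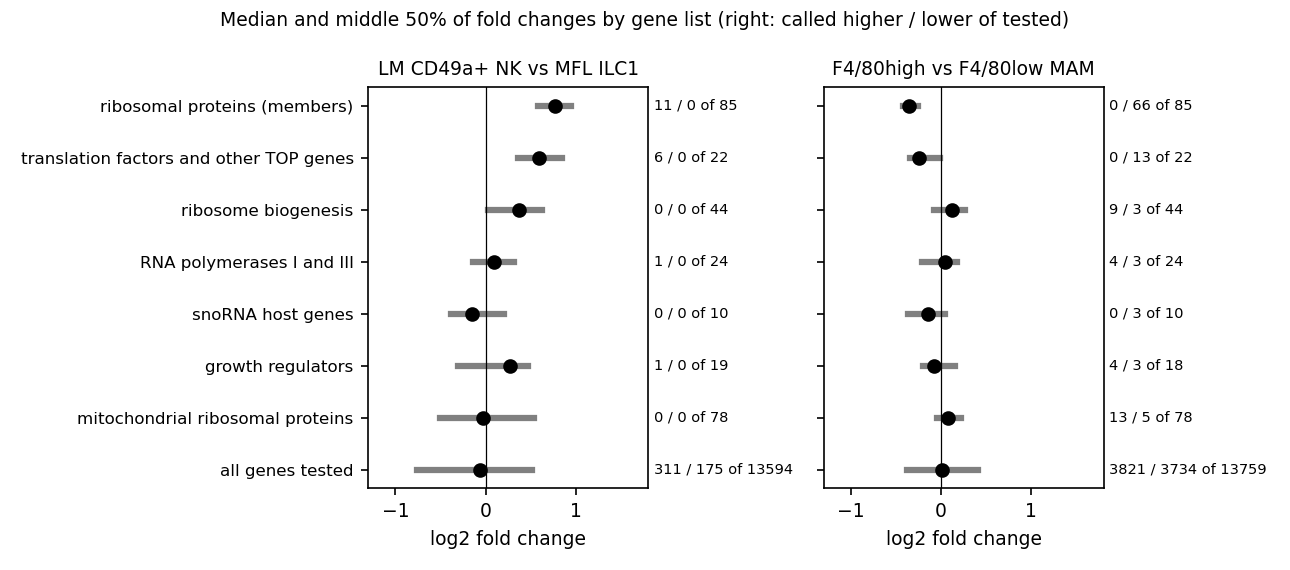
Median (dot) and interquartile range (bar) of the log2 fold changes of each gene list (rows) for LM CD49a+ NK cells against MFL ILC1 (left) and F4/80high against F4/80low MAM (right). Numbers at the right give genes called higher and lower of those tested. The members and the translation factor list lie above 0 on the left (medians 0.77 and 0.59) and below 0 on the right (-0.36 and -0.24), and ribosome biogenesis lies above 0 in both (0.37 and 0.12).

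The letters near the start were also counted by call. A run of 8 pyrimidines stood in 22 of the 52 members with an entry that were called lower in F4/80high MAM, and in 2 of the 10 that were not called. For LM CD49a+ NK cells against MFL ILC1 it stood in 1 of 8 called members and in 23 of 52 that were not called. CCGGAAG was found in 21 of 52 and 4 of 10 members in the MAM, and in 2 of 8 and 23 of 52 in the lymphocytes. These are counts of letters in fixed windows and were not tested.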

How the data were processed

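Bulk RNA-seq of 12 lymphocyte and 6 macrophage libraries was analysed. Per the labels and the study's methods, the authors assigned reads to transcripts of GRCm39 with Salmon (1.5.0 for the lymphocytes, 1.10.0 for the MAM, per the submitters' processing notes). The tables they deposited hold Salmon's estimated counts summed by gene, unnormalized and in whole numbers. How Salmon divides reads among identical copies depends on the transcripts in its index. Salmon was run on stranded libraries, total RNA for the lymphocytes and poly(A) RNA for the MAM.

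Gene IDs were named from GENCODE vM39, which held 53700 of 54309 IDs of the lymphocytes and 13726 of 13759 of the MAM. Genes were kept by edgeR's filterByExpr (minimum count 10), which left 13594 of the lymphocyte table and all 13759 of the MAM table. The latter holds only genes with at least 37 counts in sum, so it appears to have been filtered before deposit, by a rule not given in the sources used here, and the 6 members it lacks were not analysed there. edgeR 4.0.16 (R 4.3.3) scaled libraries by TMM and compared groups with the quasi-likelihood test, in 1 fit of the 12 lymphocyte libraries and 1 of the 6 MAM libraries, with Benjamini-Hochberg adjustment over all genes tested and calls at an adjusted p under 0.1. The fits were tested on simulated data. Standard errors of log2 fold changes were obtained from the quasi-likelihood F statistic. DESeq2 1.42.0, other scalings, no filter, the replicate number as a block, fits without each library, summed copies and library totals were tried as alternatives, the last 2 chosen after seeing the data. Coding sequences were compared with Biopython 1.88. With 3 libraries against 3, an exact two-sided permutation test cannot go below p = 0.1, so none was run on single values. The paper states that the pooled MFL and LM samples came from 3 independent sortings. The labels do not tie the libraries to separate animals or say which libraries share a sorting. The p-values measure the spread between these libraries.

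The members, gene lists and tests were chosen with earlier results of these data known. Genes named are the called members with the largest changes (up to 6 per direction and comparison), 8 core genes, paralog pairs, the 3 highest and 3 lowest per kilobase, Fau, Rack1, and up to 2 called genes per list and direction. Some genes that fall under this rule are not reported here.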

Additional observations from a re-analysis of the deposited data

How the results depend on the processing

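The count of called members moved by more than 1.5 times under these alternatives. Without the filter on low counts it was 11 for LM CD49a+ against LM CD49a- NK cells, 21 against MFL NK cells, 36 against MFL ILC1 and 4 for the CD49a by site interaction. All were higher, beside 104, 238, 475 and 152 of 21988 genes called higher. DESeq2 called 5, 12 and 17 in the first 3 of these comparisons, all higher, beside 3.37%, 1.98% and 4.86% of the genes it tested. Against MFL NK cells, DESeq2 size factors gave 2, beside 67 of 13594 genes called higher. Leaving out mitochondrial, ribosomal RNA and small RNA genes gave 1 there, beside 60 of 13452 genes called higher. With the replicate number as a block, 1 member was called against MFL NK cells, beside 61 of 13594 genes called higher. The block moved no other count by over 1.5 times. Deviations of same-numbered libraries correlated at most weakly (-0.045 to 0.098 in the lymphocytes and -0.015 to 0.172 in the MAM, 1 of 3 above 0.1). Libraries of different number gave -0.108 to 0.084 and -0.123 to 0.091. The numbers were not taken as pairs, though 3 MAM pairs are too few to exclude a shared deviation. Library totals in place of TMM gave 29 called in the MAM, all lower, beside 20.5% of all genes called lower. The cause of these differences was not tested.

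Fits without 1 library called 0 to 6 members for LM CD49a+ against LM CD49a- NK cells, 0 to 2 against MFL NK cells, 3 to 16 against MFL ILC1, 0 to 3 for the interaction and 44 to 69 in the MAM. Of all genes, 5 to 267, 26 to 168, 257 to 708, 75 to 256 and 6550 to 7234 were called in these comparisons. The fits called 0 members in MFL ILC1 and in LM CD49a- NK cells against MFL NK cells, beside 268 to 562 and 1 to 110 of all genes. Genes tested were 14324 to 14536 in the lymphocytes and 13698 to 13759 in the MAM. The 6 appeared without replicate 3 of LM CD49a- NK cells, where 210 of 14383 genes were called higher, against 9 of 13594 with all libraries. The members' medians ranged from 0.36 to 0.89, 0.40 to 0.93, 0.50 to 0.95 and -0.42 to -0.28 for the first 3 comparisons and the MAM, and from -0.31 to 0.19 and -0.23 to 0.28 for the last 2. Among named genes, single calls were lost 34 times against MFL ILC1, 34 times in the MAM and 4 times against MFL NK cells over all alternatives, and gained 14, 2 and 8 times. No called gene named here reversed. The fit without a filter is the same fit in the MAM, where the filter left out no gene. Depth limits what can be said of genes under 20 CPM, several retrocopies among them.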
